A study of Mus musculus with 8 samples.

Results

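The 10 genes Trem2, Tyrobp, Gpnmb, Spp1, Lgals3, Cd72, Syngr1, Capg, Atp6v0d2 and Itgax were followed as markers of Trem2-type lipid-associated macrophages. They were found by symbol, 1 row each, among the 48440 genes of a count table from mouse pancreatic islet macrophages. The libraries came from male wild-type C57BL/6J mice, 16 weeks old, whose islets were sorted for cells double-positive for CD11b and F4/80. The high-fat diet (HFD) libraries, replicates 5 to 8, were from mice fed 45% fat, 20% protein and 35% carbohydrate at 19.67 kJ/g for 8 weeks. The chow libraries, replicates 1 to 4, were from mice fed 8% fat, 21% protein and 71% carbohydrate at 10.88 kJ/g for the same time. Each library pooled 2 mice, so the library is the replicate (n = 4 per diet), and 500 pg of RNA was amplified for each. The numbers do not pair libraries across diets.

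Lipid-associated macrophages are a state first described in obese adipose tissue and later in other lipid-loaded tissues, where macrophages take up and break down lipid. The receptor Trem2 binds lipids and lipoproteins at the cell surface and signals through the adaptor Tyrobp (DAP12), whose cytoplasmic motif recruits the kinase Syk. The other genes mark the state at the surface (Gpnmb, Cd72, Itgax), as secreted or sugar-binding proteins (Spp1, Lgals3), and inside the cell (Capg, Atp6v0d2, Syngr1).

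Of the 10 genes 5, Tyrobp, Itgax, Cd72, Trem2 and Lgals3, were counted in all 8 libraries, and Gpnmb, Spp1, Capg, Atp6v0d2 and Syngr1 were at or near 0 in at least 1 library. Levels are in counts scaled to library size by TMM (CPM), which also depend on transcript length. Itgax, Tyrobp and Cd72 together took 87.6% of the CPM of the 10 genes. In bulk libraries, fewer cells expressing a gene and less RNA per cell cannot be told apart. The summed level of the 10 genes was 940 ± 43.6 CPM in HFD and 896 ± 97.4 CPM in chow (SD, n = 4 each). Gpnmb, Spp1, Capg and Atp6v0d2, singled out after their values were seen, had higher mean levels in HFD, as did Itgax, Trem2 and Lgals3. Of these, Gpnmb, Spp1 and Atp6v0d2 were near 0 in HFD replicate 8. The mean levels of Tyrobp, Cd72 and Syngr1 were lower in HFD, and none of the 10 genes passed the test.

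The 8 libraries held 4288661 to 6391245 counts. Where a library had no count of a gene, 3 counts set the upper limit, 0.468 to 0.708 CPM by library, which covers counting error only. The macrophage check list was high in every library, at 5983 to 7066 CPM in HFD and 5808 to 8030 CPM in chow, with all of its 12 genes detected. Stellate and fibroblast transcripts separated 3 libraries from the other 5. Their sum was 472, 326, 316 and 106 CPM in HFD replicates 5 to 8, against 24.3, 94.6, 133 and 116 CPM in chow replicates 1 to 4. Of its 16 genes Loxl1 alone was at 0 everywhere, and Rgs5, the highest over all libraries, was lower in those 3 than in 4 of the other 5. Without Rgs5, left out after seeing the data, the sum was 441, 276, 291 and 8.64 CPM in HFD and 24.3, 15.8, 4.77 and 30.2 CPM in chow. The collagen genes Col1a1, Col1a2 and Col3a1, named after their values were seen, summed to 262, 145, 157 and 1.81 CPM in HFD replicates 5 to 8, against 0.156 to 2.83 CPM in chow. Fits with the stellate and fibroblast covariate use the full list, Rgs5 included. The 3 highest sums of that list were all in HFD, so such a fit cannot fully separate diet from these transcripts.

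The diets were compared to find how feeding fat alters the transcriptome of islet macrophages. With the quasi-likelihood test of edgeR and an adjusted p under 0.05, 0 of 10129 tested genes were called (0.00%). At an unadjusted p under 0.05 there were 542 genes (5.35%), while DESeq2 called 93 genes (0.765% of those it gave an adjusted p) and limma-voom called 1 (0.00987%). Of the 10 markers 9 passed the filter on low counts, all but Syngr1, and 0 were called by edgeR, DESeq2 or limma-voom. A marker of low level passed that filter only through the libraries where it was high. The log2 fold change (HFD over chow) was above 0 for 7 of the 9, with a median of 0.23, against 48.6% of all tested genes and a median of -0.02. At an unadjusted p under 0.05 each tool gave 1 marker, higher in HFD. It was Spp1 with edgeR, where 2.61% of tested genes were under 0.05 and higher in HFD, and with DESeq2, where 7.10% were under 0.05 and 3.76% also higher. With limma-voom it was Capg, where 5.42% were under 0.05 and 2.67% also higher. The HFD and chow levels overlapped for all 10 markers, whereas 3.39% of tested genes did not overlap and 1.68% did so with HFD higher.

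**Figure D1:**
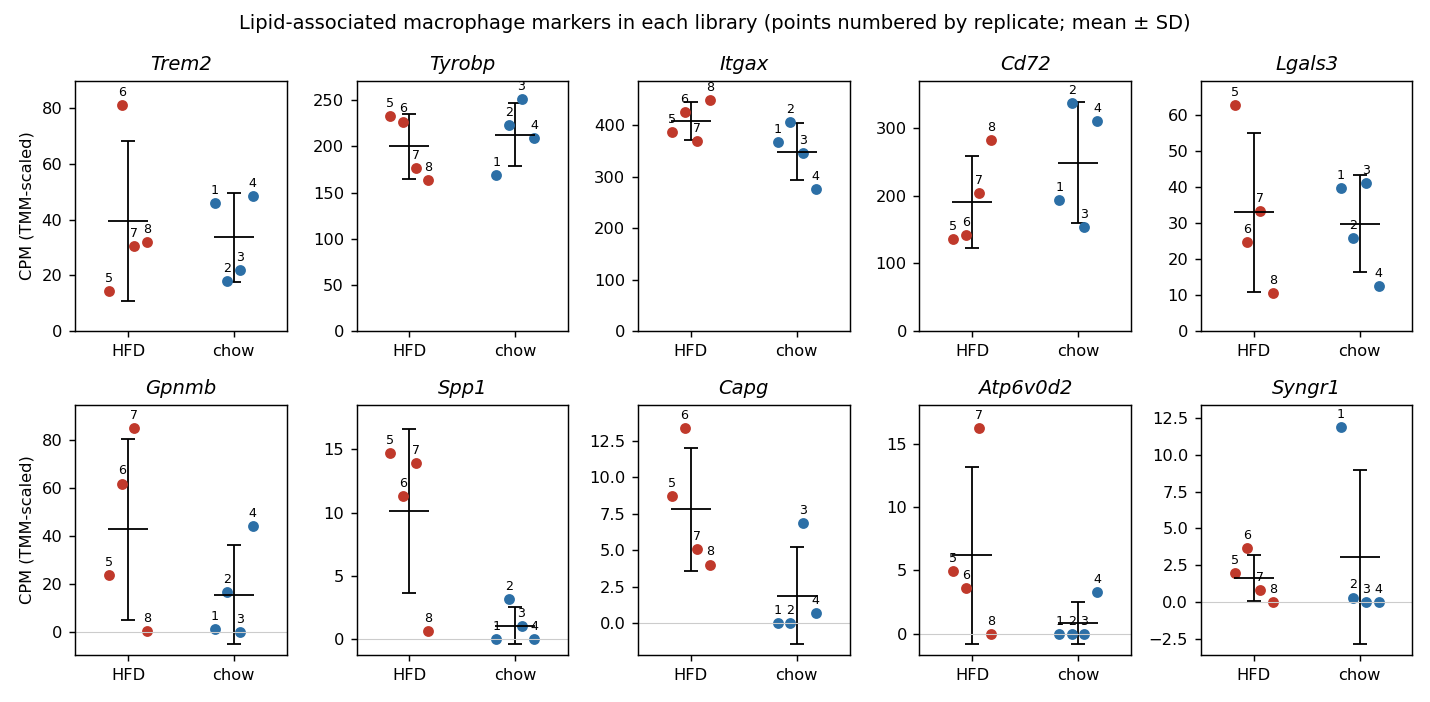
Level of each marker (y axis, TMM-scaled CPM, linear) in the 4 HFD and 4 chow libraries (x axis); points carry the replicate number, and the bar and whiskers are the mean ± SD. Tyrobp, Itgax and Cd72 are well above 0 in every library, while Spp1 lies between 11.3 and 14.7 CPM in HFD replicates 5, 6 and 7 and at 0.603 CPM in HFD replicate 8.

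Trem2 (ENSMUSG00000023992, GRCm38 chromosome 17, 48346401 to 48354147, plus strand) is the lipid-sensing receptor of this state. Its level was 14.5, 81.1, 30.6 and 31.9 CPM in HFD replicates 5 to 8, against 46.1, 18.1, 21.98 and 48.6 CPM in chow replicates 1 to 4. The highest and the lowest of the 8 values were both HFD libraries, so the spread within HFD covered the whole chow range. The mean was 39.5 ± 28.8 CPM in HFD and 33.7 ± 15.9 CPM in chow, a log2 fold change of 0.23 (SE 0.59, edgeR adjusted p = 0.99). The 95% interval of the fold ran from 0.501 to 2.75. Without HFD replicate 6 the log2 fold change was -0.40 (SE 0.66, edgeR adjusted p = 0.995), so that library set its direction.

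Tyrobp (ENSMUSG00000030579, chromosome 7, 30413760 to 30417585), the signalling adaptor of Trem2 and of several other myeloid receptors, was steady. It was at 233, 227, 176 and 164 CPM in HFD replicates 5 to 8 and at 169, 223, 251 and 209 CPM in chow replicates 1 to 4. The groups overlapped over most of their range. The mean was 200.1 ± 35.0 CPM in HFD and 213 ± 34.2 CPM in chow, with a log2 fold change of -0.09 (SE 0.23, edgeR adjusted p = 0.99). The 95% interval of 0.670 to 1.32 fold was narrower than that of Trem2. Across the 8 libraries Trem2 and Tyrobp did not track each other, with a Pearson correlation of log2 CPM of -0.286. HFD replicate 6 had the highest Trem2 and HFD replicate 5 the lowest, at nearly equal Tyrobp.

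Itgax (ENSMUSG00000030789, chromosome 7, 128129547 to 128150657) encodes the integrin alpha chain CD11c, which marks islet macrophages as well as dendritic cells. It was at 387, 426, 369 and 449 CPM in HFD replicates 5 to 8 and at 366, 407, 346 and 276 CPM in chow replicates 1 to 4. The HFD libraries split around the top of the chow range, 2 of 4 being above every chow library and 2 within the range. The log2 fold change was 0.23 (SE 0.19, edgeR adjusted p = 0.99), with a 95% interval of 0.893 to 1.53 fold. Dendritic cell transcripts, which could carry Itgax, summed to 163 to 292 CPM in HFD and 278 to 332 CPM in chow. Of the 12 genes of that list 1, Ccr7, was at 0 in all libraries and Siglech was the highest. The correlation of Itgax with that sum, mostly Siglech, was -0.0358 over the 8 libraries, and the part of dendritic cells in the Itgax level was not tested. The partner chain of CD11c, Itgb2, named for this role, was at 183 ± 41.3 CPM in HFD and 234 ± 72.6 CPM in chow, with a log2 fold change of -0.35 (SE 0.27, edgeR adjusted p = 0.99).

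Cd72 (ENSMUSG00000028459, chromosome 4, 43446462 to 43454628) encodes an inhibitory C-type lectin-like receptor best known from B cells. It was at 137, 142, 204 and 282 CPM in HFD replicates 5 to 8 and at 194, 337, 153 and 310 CPM in chow replicates 1 to 4. The lowest 2 values were HFD replicates 5 and 6 and the highest 2 were chow replicates 2 and 4. The mean was 191 ± 68.0 CPM in HFD and 249 ± 88.9 CPM in chow, with a log2 fold change of -0.38 (SE 0.29, edgeR adjusted p = 0.99). In the list of 10 B cell genes, Cd79a, Pax5, Blk and Fcmr were at 0 in all libraries, while Ighd (339 counts over all libraries), Cd79b (216), Cd22 (71) and Ms4a1 (56) were detected. Ighm made up most of the sum, which was 215 to 315 CPM in HFD and 251 to 458 CPM in chow. The correlation of Cd72 with that sum was -0.102 over the 8 libraries, and the part of B cells in the Cd72 level was not tested. Exons of Cd72 share 1423 bases with Tesk1 on the opposite strand, and the kit is not stated to keep strand. Tesk1 held 554.1 counts over all libraries, against 3874 for Cd72 in HFD and 5079 in chow, and reads of the shared bases cannot be told apart.

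Lgals3 (ENSMUSG00000050335, chromosome 14, 47367751 to 47386160) encodes galectin-3, a sugar-binding protein abundant in phagocytes. Its level was 62.8, 24.8, 33.3 and 10.6 CPM in HFD replicates 5 to 8, against 39.8, 25.9, 41.1 and 12.5 CPM in chow replicates 1 to 4. The diets had nearly the same centre, and the values of both ran over a wide range. The log2 fold change was 0.14 (SE 0.62, edgeR adjusted p = 0.99). It was -0.38 without HFD replicate 5, -0.12 without chow replicate 4 and -0.39 with stellate and fibroblast transcripts as a covariate, so no direction can be given. Lgals3 was high where the monocyte list was high (r = 0.901 over 8 libraries that share the sort and the amplification). That list summed to 691 to 1200 CPM in HFD and 668 to 1084 CPM in chow, with Ccr2 the highest, and Ly6c2, Plac8 and Ace were at 0 in all libraries. The part of monocyte-type cells in the Lgals3 level was not tested.

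Gpnmb (ENSMUSG00000029816, chromosome 6, 49036546 to 49070929) encodes a transmembrane glycoprotein of lysosome-rich, lipid-loaded macrophages. It was at 24.0, 62.0, 84.9 and 0.603 CPM in HFD replicates 5 to 8 and at 1.57, 16.9, 0 and 44.4 CPM in chow replicates 1 to 4. Both diets held libraries with almost no Gpnmb and libraries with far more. Replicates 6 and 7 of HFD were above every chow library and HFD replicate 8 was below 3 of the 4. The mean was 42.9 ± 37.8 CPM in HFD and 15.7 ± 20.6 CPM in chow, with a log2 fold change of 1.45 (SE 1.43, edgeR adjusted p = 0.99). Its 95% interval, 0.307 to 24.3 fold, reached well to both sides of no difference. The log2 fold change was 2.78 without chow replicate 4 and 0.88 without HFD replicate 7. With stellate and fibroblast transcripts as a covariate it was -2.28 (SE 1.96, edgeR adjusted p = 0.995).

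Spp1 (ENSMUSG00000029304, chromosome 5, 104435118 to 104441050) encodes osteopontin, a secreted phosphoprotein that binds integrins and CD44. It was at 14.7, 11.3, 13.9 and 0.603 CPM in HFD replicates 5 to 8, against 0, 3.12, 1.04 and 0 CPM in chow replicates 1 to 4. The first 3 HFD libraries were alike and above every chow library, and HFD replicate 8 lay within the chow range. In counts these were 74, 65, 66 and 3 in HFD and 0, 20, 5 and 0 in chow. The mean was 10.1 ± 6.51 CPM in HFD and 1.04 ± 1.47 CPM in chow. The log2 fold change was 3.22 (SE 1.52), the largest of the 9, with an edgeR adjusted p of 0.91 and a 95% interval of 1.04 to 84.1 fold. Over the alternatives tried its adjusted p ranged from 0.36, with DESeq2, to 0.998. Its unadjusted p was above 0.05 in 6 of the 8 fits without 1 library, all but those without chow replicate 2 or HFD replicate 8. It was also above 0.05 with limma-voom and with the stellate and fibroblast or the ductal covariate.

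Spp1 was highest in the libraries with stellate and fibroblast transcripts (r = 0.851 over 8 libraries). Its log2 fold change was -0.72 (SE 1.94, edgeR adjusted p = 0.997) with that list as a covariate. The covariate was highest in HFD libraries, so this fit cannot fully separate it from diet. Spp1 is also a ductal gene of the pancreas. Ductal transcripts summed to 0.402 to 4.85 CPM in HFD and 0 to 6.14 CPM in chow, with Krt8, Sox9, Cftr, Cldn4 and Mmp7 at 0 in all libraries. Without HFD replicate 8 the HFD and chow levels of Spp1 and of Atp6v0d2 did not overlap, 2 of 10 markers, both higher in HFD. In the same 7 libraries 7.00% of tested genes did not overlap and 3.50% did so higher in HFD. HFD replicate 8 was left out after its values were seen. The part of stromal cells in these levels was not tested.

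Atp6v0d2 (ENSMUSG00000028238, chromosome 4, 19876841 to 19922605) encodes a subunit of the vacuolar proton pump that acidifies lysosomes, known from osteoclasts. It was at 4.97, 3.65, 16.2 and 0 CPM in HFD replicates 5 to 8, against 0, 0, 0 and 3.30 CPM in chow replicates 1 to 4. It was absent from the counts of 4 libraries, HFD replicate 8 and chow replicates 1, 2 and 3. The log2 fold change was 2.90 (SE 1.79, edgeR adjusted p = 0.99), with a 95% interval of 0.557 to 100.4 fold. Without chow replicate 4 the other 3 chow libraries hold no count, and the fitted value of 8.01 (SE 2.61, edgeR adjusted p = 0.56) then depends on the prior count. With the stellate and fibroblast covariate it was -2.54 (SE 2.61, edgeR adjusted p = 0.995).

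Capg (ENSMUSG00000056737, chromosome 6, 72544391 to 72562983) encodes an actin-capping protein of the gelsolin family. It was at 8.74, 13.4, 5.06 and 4.02 CPM in HFD replicates 5 to 8, against 0, 0, 6.84 and 0.708 CPM in chow replicates 1 to 4. All 4 HFD libraries held the transcript, HFD replicate 8 included, while only chow replicate 3 reached their range. The mean was 7.80 ± 4.23 CPM in HFD and 1.89 ± 3.32 CPM in chow, with a log2 fold change of 2.04 (SE 1.51, edgeR adjusted p = 0.99). Without chow replicate 3 it was 4.99 (edgeR adjusted p = 0.67), and with the stellate and fibroblast covariate 0.39 (edgeR adjusted p = 0.997).

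Syngr1 (ENSMUSG00000022415, chromosome 15, 80091334 to 80119501), which encodes a vesicle membrane protein of the synaptogyrin family, had the fewest counts of the 10 markers over all libraries. It was at 1.99, 3.65, 0.843 and 0 CPM in HFD replicates 5 to 8, against 11.9, 0.312, 0 and 0 CPM in chow replicates 1 to 4. Of its 55 chow counts 53 came from chow replicate 1. It did not pass the filter; with no filter its log2 fold change was -0.88 (SE 2.00, edgeR adjusted p = 0.92).

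**Figure D2:**
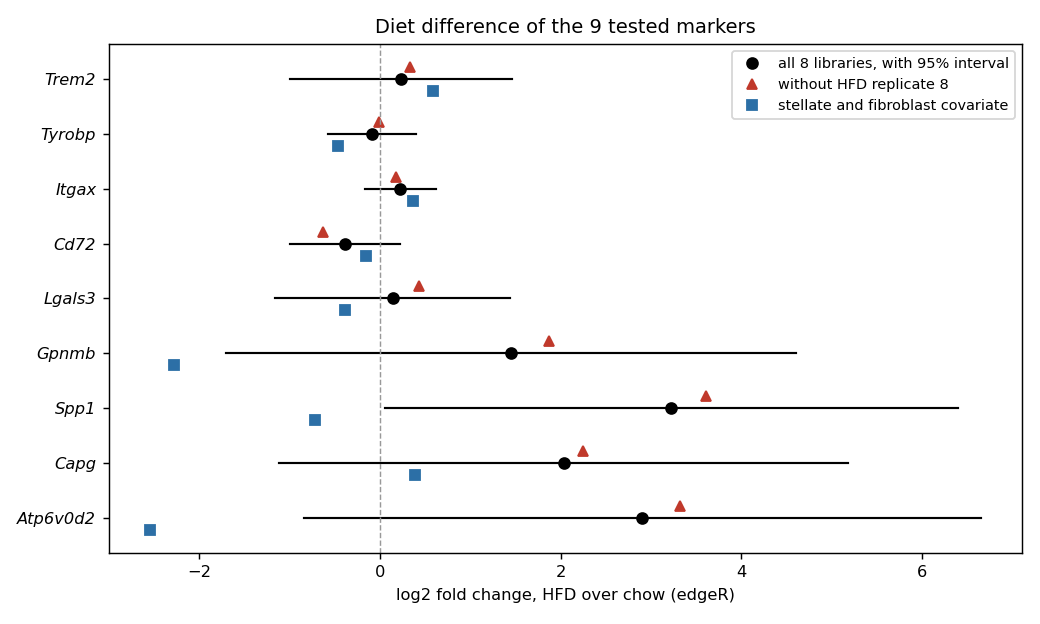
Log2 fold change of HFD over chow (x axis) for the 9 tested markers (rows): black points with 95% intervals are the fit to all 8 libraries, red triangles leave out HFD replicate 8, and blue squares add the stellate and fibroblast covariate. The intervals of Tyrobp and Itgax are the narrowest, and the covariate moves Gpnmb, Spp1, Lgals3 and Atp6v0d2 below 0.

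The spread between libraries of the same diet differed widely between markers. The SD of Itgax and Tyrobp was 8.95% and 17.5% of the mean in HFD and 15.7% and 16.1% in chow. For Trem2 it was 72.9% in HFD and 47.1% in chow, although 73 to 467 counts stood behind each HFD value and 106 to 206 behind each chow value. For Spp1, Capg and Atp6v0d2 it was 54.3% to 113% in HFD and 142% to 200% in chow. These RNAs were amplified from 500 pg without stated molecular identifiers, so counts are not independent molecules.

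Levels of different genes were ranked per kilobase. With all exons merged, Tyrobp was highest in HFD at 300 ± 52.5 CPM per kb, followed by Itgax at 84.9 ± 7.61 and Cd72 at 55.8 ± 19.9. Lgals3 (17.7 ± 11.8), Trem2 (7.99 ± 5.83), Gpnmb (6.58 ± 5.80), Spp1 (6.14 ± 3.95), Capg (3.08 ± 1.67), Atp6v0d2 (2.29 ± 2.58) and Syngr1 (0.337 ± 0.328 CPM per kb) came after. In chow Tyrobp was again first at 319 ± 51.3 CPM per kb, then Cd72 at 72.7 ± 26.0, Itgax at 72.6 ± 11.4, Lgals3 at 16.0 ± 7.22, Trem2 at 6.81 ± 3.21 and Gpnmb at 2.41 ± 3.16. The 4 lowest in chow, Capg, Syngr1, Spp1 and Atp6v0d2, were at 0.304 to 0.746 CPM per kb. In this order Tyrobp stood clear of the next gene in both diets, and the third gene stood clear of Lgals3. All other neighbours overlapped between libraries. Trem2 depends most on the length used. Its merged exons span 4946 bases but its principal coding transcript 1088. Per kb of that transcript it was at 36.3 ± 26.5 CPM in HFD and 31.0 ± 14.6 CPM in chow. That put its mean ahead of Lgals3, but Trem2 was above Lgals3 in only 3 of 4 HFD and 2 of 4 chow libraries, with overlap. The order of Cd72 and Itgax in HFD also turned: per kb of the principal transcript Cd72 was at 134.6 ± 47.9 CPM in HFD and 175 ± 62.6 CPM in chow, and Itgax at 100.8 ± 9.03 CPM in HFD and 86.2 ± 13.6 CPM in chow. On that scale Cd72 was above Itgax in 3 of 4 HFD libraries, with overlap, and in all 4 chow libraries, without overlap. The use of transcript length was chosen after seeing the data.

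The markers varied largely apart from each other across libraries. Over the 45 pairs the median Pearson correlation of log2 CPM was 0.0957, and leaving out 1 library at a time gave 0.0271 to 0.123. The closest pair was Gpnmb and Atp6v0d2, at 0.831 over the 8 libraries and 0.820 for deviations from the diet means. Spp1 followed Atp6v0d2 at 0.625 and Capg at 0.618, with 0.391 and 0.215 within diets. Tyrobp was closer to Capg and Spp1 within diets, at 0.705 and 0.672, than over the 8 libraries, at 0.313 and 0.325. Spp1 with Lgals3 was at 0.469, and at 0.644 within diets. The most opposed pairs were Lgals3 with Cd72 at -0.718 (-0.773 within diets) and Capg with Cd72 at -0.688 (-0.651 within diets). Within diets the most opposed pair was Atp6v0d2 with Itgax at -0.819, against -0.223 over all 8 libraries. The highest correlation of Trem2 with another marker was 0.335, with Syngr1. Among 7328 other genes of at least 10 CPM, those most like Trem2 were Gm43696 (0.969), Arl6ip5 (0.962), Mapkapk3 (0.904), Fzd5 (0.903) and E430024P14Rik (0.894). Those most like Gpnmb were Lonp2 (0.966), Arfgef1 (0.953), Plekhm3 (0.948), Mrfap1 (0.938) and Herc4 (0.926). The 8 libraries share the sort and the amplification, and these are descriptions of the libraries only.

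**Figure D3:**
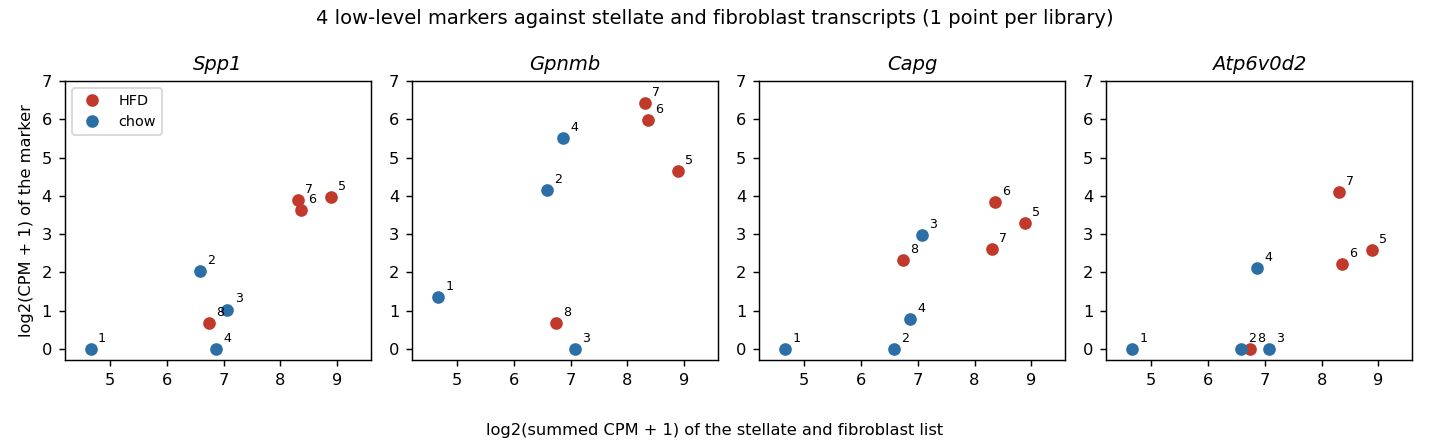
Level of Spp1, Gpnmb, Capg and Atp6v0d2 (y axis, log2 of CPM + 1) against the summed stellate and fibroblast transcripts (x axis, log2 of summed CPM + 1) in each HFD (red) and chow (blue) library, numbered by replicate. HFD replicates 5, 6 and 7 lie to the right of the other 5 libraries, and HFD replicate 8 lies among the chow libraries.

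Promoter windows, 250 bases before to 50 after an annotated start, were in the RefSeq table (GRCm38.p6) for 8 of the 10 markers, 9 windows in all, with 2 for Spp1. Tyrobp and Atp6v0d2 had none there. The 9 windows were searched on both strands for 3 short motifs. CACGTG is the E-box read by the MiT/TFE lysosome factors, and GAGGAAG is read by the myeloid factor PU.1. TGANTCA is a loose pattern for AP-1 that admits any middle base. CACGTG was in 0 of the 9 windows and in 7.15% of all 32851 windows. TGANTCA was in 3 of 9 (Trem2, Gpnmb and Itgax) and 7.81% of all. The middle base was A in Trem2, C in Gpnmb and G in Itgax. GAGGAAG was in 3 of 9 (Trem2, Cd72 and Spp1) and 13.6% of all. The 4 windows shown are those of the receptor, of Gpnmb and Spp1, whose mean levels were higher in HFD, and of the abundant Itgax. Capitals mark the matches, which do not overlap each other. That of Trem2 for GAGGAAG, on the opposite strand, begins 41 bases before the start and that for TGANTCA 9 before. The match of Gpnmb begins 8 bases after its RefSeq start, that of Spp1 113 before and that of Itgax 56 before. These RefSeq starts can differ from the gene coordinates given above, as for Gpnmb. A match in letters is no evidence of binding.
Trem2 (chr17:48346151-48346450, plus strand): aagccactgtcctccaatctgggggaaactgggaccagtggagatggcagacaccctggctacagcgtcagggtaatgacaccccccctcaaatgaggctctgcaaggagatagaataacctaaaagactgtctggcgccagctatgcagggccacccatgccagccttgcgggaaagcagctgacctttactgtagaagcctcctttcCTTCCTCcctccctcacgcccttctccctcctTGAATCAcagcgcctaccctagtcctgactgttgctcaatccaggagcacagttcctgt
Gpnmb (chr6:49036268-49036567, plus strand): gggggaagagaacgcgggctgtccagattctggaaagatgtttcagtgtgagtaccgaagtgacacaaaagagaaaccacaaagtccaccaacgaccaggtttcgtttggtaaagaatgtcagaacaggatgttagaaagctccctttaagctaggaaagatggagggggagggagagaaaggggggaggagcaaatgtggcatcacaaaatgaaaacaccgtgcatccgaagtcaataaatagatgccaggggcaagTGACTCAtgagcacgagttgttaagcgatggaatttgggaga
Spp1 (chr5:104434861-104435160, plus strand): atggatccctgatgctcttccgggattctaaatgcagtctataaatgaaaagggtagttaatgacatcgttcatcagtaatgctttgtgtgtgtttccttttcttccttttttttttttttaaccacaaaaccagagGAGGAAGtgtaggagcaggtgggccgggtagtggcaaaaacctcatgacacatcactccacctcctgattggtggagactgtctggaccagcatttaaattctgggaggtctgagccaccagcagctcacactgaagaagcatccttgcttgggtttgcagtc
Itgax (chr7:128129300-128129599, plus strand): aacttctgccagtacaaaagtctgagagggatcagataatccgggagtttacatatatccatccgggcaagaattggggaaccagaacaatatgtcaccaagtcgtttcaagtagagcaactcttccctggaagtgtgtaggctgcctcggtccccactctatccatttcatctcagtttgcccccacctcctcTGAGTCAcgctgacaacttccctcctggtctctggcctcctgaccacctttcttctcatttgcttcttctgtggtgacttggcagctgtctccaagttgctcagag

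The genes around the markers were read from 9 lists, each without the 10 markers. In edgeR 0 genes of any list were called (0.00% of all tested genes). Among 12 tested ligands and shedding proteases, 9 had values below chow and 3 above; the median of their log2 fold changes was -0.30; adding the stellate and fibroblast covariate gave -0.03. The complement gene C1qb was at 462 ± 73.7 CPM in HFD and 645 ± 119 CPM in chow, with a log2 fold change of -0.48 (SE 0.18, edgeR adjusted p = 0.76). The lipoprotein gene Apoe, a Trem2 ligand, had -0.35 (SE 0.16, edgeR adjusted p = 0.91), C1qa -1.10 (SE 0.54, edgeR adjusted p = 0.94) and C1qc -0.26 (SE 0.19, edgeR adjusted p = 0.99).

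The list of Tyrobp and Fc gamma chain receptors and adaptors also held the plexin ligand gene Sema6d. Of its 13 tested genes 6 were above chow and 7 below. Their median was -0.05, but 0.02 when scaled by library totals and 0.16 without chow replicate 2. Trem1, Trem3 and Siglec15, named after their values were seen, had no count in any library, and Treml2 and Treml4, chosen likewise, had too few counts to be tested. Plxna1, a plexin that pairs with Trem2 in osteoclasts and dendritic cells, was at 36.0, 30.9, 54.6 and 9.24 CPM in HFD replicates 5 to 8, against 2.25, 5.78, 13.1 and 13.5 CPM in chow replicates 1 to 4. Its log2 fold change was 1.92 (SE 0.79, edgeR adjusted p = 0.85), and the plexin ligand Sema6d had 1.42 (SE 0.73, edgeR adjusted p = 0.94). The Fc gamma chain gene Fcer1g, named for its role as the adaptor beside Tyrobp, was at 477 ± 85.4 CPM in HFD and 494 ± 66.2 CPM in chow.

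Downstream of Tyrobp, 19 of 31 tested signalling genes were above chow and 12 below. Their median was 0.09, and -0.01 without HFD replicate 8. Syk, the kinase that binds the phosphorylated adaptor, named for this role, was at 163 ± 48.6 CPM in HFD and 173 ± 25.3 CPM in chow (log2 fold change -0.09, SE 0.27, edgeR adjusted p = 0.99). The phospholipase gene Plcg1 was at 23.0, 14.1, 8.01 and 39.6 CPM in HFD replicates 5 to 8, against 5.39, 3.28, 2.28 and 0.236 CPM in chow replicates 1 to 4. Its groups did not overlap, HFD replicate 8 being the highest, with a log2 fold change of 2.91 (SE 1.04, edgeR adjusted p = 0.75). The exchange factors Vav2 and Vav1 had log2 fold changes of -0.75 (SE 0.41) and -0.65 (SE 0.42), and the kinase gene Tec 0.61 (SE 0.39), none of them called by edgeR.

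The lipid-associated state held 41 other tested genes, 22 above chow and 19 below. Their median was 0.04, and -0.02 without chow replicate 4. At an unadjusted edgeR p under 0.05, 6 of the 41 were higher in HFD and 3 lower. Over all tested genes 5.35% were under 0.05, and 2.61% were also higher in HFD. The list was drawn up with earlier results of these data known. DESeq2 called 2 of the 41, Igf1 (DESeq2 adjusted p = 1.8e-05) and the fatty acid transporter gene Cd36 (DESeq2 adjusted p = 0.034), where it called 0.765% of all genes. Igf1, a growth factor gene, was at 293, 124, 169 and 31.9 CPM in HFD replicates 5 to 8, against 14.4, 22.6, 21.1 and 15.3 CPM in chow replicates 1 to 4. Its groups did not overlap, and its 3 highest values were in the 3 libraries with collagen transcripts, whose part in the Igf1 level was not tested. The edgeR log2 fold change of Igf1 was 3.07 with SE 0.51 (adjusted p = 0.084). The edgeR log2 fold change of Cd36 was 0.95 with SE 0.24 (adjusted p = 0.58) and so was that of the protease gene Ctsd, while that of the lipid droplet gene Plin2 was 1.16 with SE 0.34 (adjusted p = 0.71). The groups of Cd36 did not overlap, HFD being higher, while those of Ctsd and Plin2 overlapped. Cst7, a cystatin gene of Trem2-dependent microglia, named after its values were seen, had no count in any library. Genes that define resting microglia in the brain, which fall when Trem2-dependent microglia form, were below chow for 12 of 17 tested and above for 5 (median -0.09). Among them Fcrls (1.72, SE 0.50) and the ectonucleotidase gene Entpd1 (0.59, SE 0.21) had positive log2 fold changes, and P2ry13 (-0.77, SE 0.35) and Mef2c (-0.33, SE 0.16) negative ones, with edgeR adjusted p-values of 0.71 to 0.94.

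Beside Atp6v0d2, 12 of 17 tested V-ATPase subunits were above chow and 5 below; their median was 0.30, against -0.02 for all genes. That was the highest median of the 9 lists, but without HFD replicate 5 it was 0.07, below the 0.15 of the signalling genes. Atp6v1b2, a subunit of the catalytic part, was at 95.5, 118, 172 and 74.3 CPM in HFD replicates 5 to 8, against 52.6, 32.2, 79.4 and 60.7 CPM in chow replicates 1 to 4, with a log2 fold change of 1.03 (SE 0.38, edgeR adjusted p = 0.75). The accessory subunit gene Atp6ap1 had 0.60 (SE 0.26, edgeR adjusted p = 0.89), Atp6v1h 0.82 (SE 0.42, edgeR adjusted p = 0.94) and Atp6v1g2 -1.93 (SE 0.95, edgeR adjusted p = 0.94). The 13 tested MiT/TFE and osteoclast genes were split, 7 above and 6 below, with a median of 0.10, and -0.0017 without HFD replicate 7. The MiT family gene Tfec was at 64.0, 21.9, 23.6 and 9.04 CPM in HFD replicates 5 to 8 and 20.4, 5.00, 0.622 and 6.84 CPM in chow replicates 1 to 4 (log2 fold change 1.85, SE 0.92, edgeR adjusted p = 0.94). Ostm1, Clcn7 and Tnfrsf11a had log2 fold changes of 0.51 (SE 0.42), 0.83 (SE 0.92) and -0.25 (SE 0.26).

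Receptors or partners of osteopontin, Gpnmb and galectin-3 were above chow for 9 of 14 tested genes and below for 5 (median 0.18). Mertk, a receptor for dying cells, was at 157, 209, 62.4 and 96.2 CPM in HFD replicates 5 to 8, against 18.2, 28.1, 37.1 and 84.5 CPM in chow replicates 1 to 4, with a log2 fold change of 1.65 (SE 0.47, edgeR adjusted p = 0.71). Lrp1 had 0.60 (SE 0.29), the osteopontin receptor gene Cd44 0.38 (SE 0.30) and the integrin gene Itgb5 -0.40 (SE 0.24), none of them called by edgeR. Paralogs and partner chains of the markers were above chow for 5 of 13 tested genes and below for 8 (median -0.32). The galectin-1 gene Lgals1 was at 5.96, 15.3, 8.22 and 27.9 CPM in HFD replicates 5 to 8, against 0, 2.81, 2.07 and 0.236 CPM in chow replicates 1 to 4, without overlap (log2 fold change 3.44, SE 1.31, edgeR adjusted p = 0.76). Syngr2, a synaptogyrin like Syngr1, was at 8.94, 18.6, 15.8 and 14.9 CPM in HFD replicates 5 to 8, against 54.4, 39.5, 31.3 and 28.8 CPM in chow replicates 1 to 4. Its groups did not overlap either, with lower values in HFD (log2 fold change -1.40, SE 0.60, edgeR adjusted p = 0.89). Svil had -1.03 (SE 0.49) and Sypl 0.72 (SE 0.39).

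**Figure D4:**
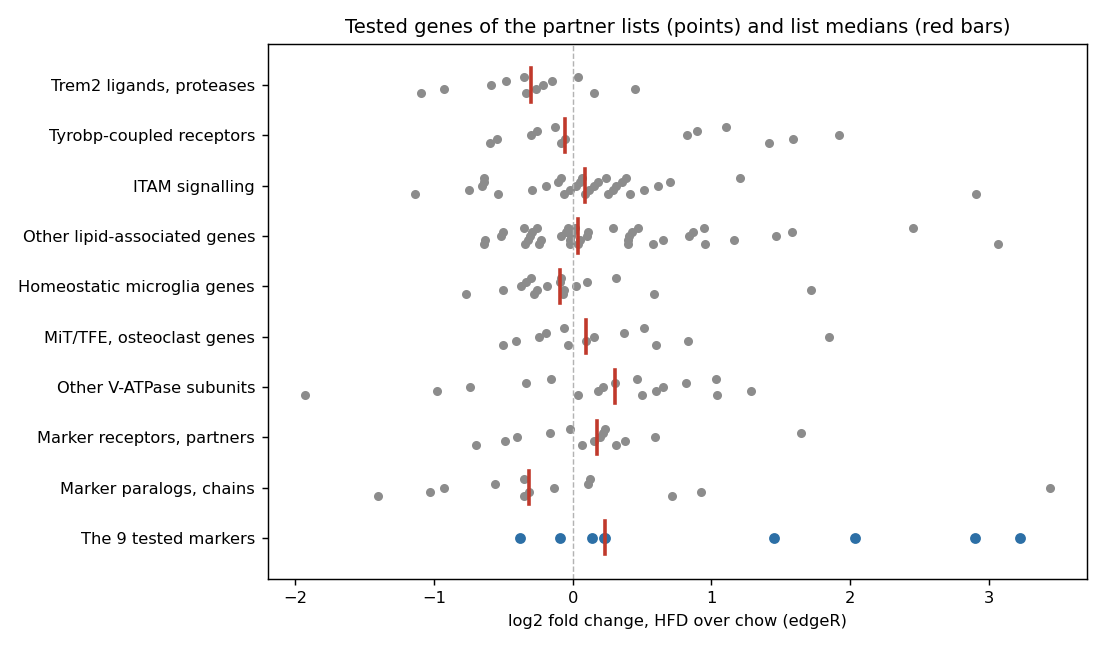
Log2 fold change of HFD over chow (x axis) for each tested gene of the 9 lists (grey points) and for the 9 tested markers (blue points, bottom row); red bars are the medians. The list medians lie between -0.32 and 0.30, and 4 of the markers lie above 1.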

How the data were processed

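Expected counts per gene were measured in 8 libraries. Reads were handled with FastQC, Trim Galore and STAR on GRCm38, per the submitters' processing notes; the sources used here give no versions and name no counting program. The authors deposited expected counts, unscaled; 7.66% to 8.32% of nonzero values were not whole, and all were rounded. Coordinates and lengths came from GENCODE M21, in which 48058 of 48440 identifiers were found. Genes passing filterByExpr were tested with edgeR (version 4.0.16; TMM, robust quasi-likelihood, diet as the only term, two-sided, Benjamini-Hochberg at 0.05 over 10129 genes). R was version 4.3.3, limma 3.58.1 and DESeq2 1.42.0. The edgeR step was tested on simulated data. Correlations used log2 CPM with a prior count of 2. No 2 libraries agreed within sampling noise (lowest chi-square per degree of freedom 36.3, 28 pairs). The labels do not say that pools came from separate cohorts, so p-values measure only the spread between these libraries. Named genes were the 10 markers, up to 4 genes of smallest p per list and the 5 genes most like Trem2 and Gpnmb; others are said to be named for a role or after their values were seen. Members and lists were chosen with earlier results of these data known. A planned search of proteins was not run.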

Additional observations from a re-analysis of the deposited data

Results flagged for a closer look

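In 44 groups of 4 libraries (10 markers and 12 cell type sums in each diet), 4 held a library far from the other 3. The cut-off gives about 1 in 20 by chance for normally distributed values. That rate does not hold for markers at or near 0 in most libraries, such as Syngr1, Capg and Atp6v0d2 in chow. Syngr1 was at 11.9 CPM in chow replicate 1 and at 0 to 0.312 CPM in the other chow libraries. Capg was at 6.84 CPM in chow replicate 3 and at 0 to 0.708 CPM in the others. Atp6v0d2 was at 3.30 CPM in chow replicate 4 and had no count in the other 3. Acinar transcripts summed to 1639 CPM in HFD replicate 7, which also had the highest Atp6v0d2 and Gpnmb, and to 37.2 to 99.9 CPM in the other HFD libraries. In chow the acinar sum ran from 0.225 to 3349 CPM and was highest in replicate 4, which held the highest Gpnmb and the only Atp6v0d2 counts of that diet. Chow replicate 3, with an acinar sum of 1503 CPM, had no count of either gene. The correlation with the acinar sum over the 8 libraries was 0.222 for Gpnmb and 0.567 for Atp6v0d2. The part of acinar RNA in these levels was not tested.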

How the results depend on the processing

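No paired analysis was possible because the replicate numbers of the diets do not overlap. None of the 10 markers was called under any of the 20 alternatives, and of 168 refitted log2 fold changes of the 9 tested markers 160 kept their direction. The 8 that reversed were, with the stellate and fibroblast covariate, Gpnmb (-2.28), Spp1 (-0.72), Lgals3 (-0.39) and Atp6v0d2 (-2.54); without 1 library, they were Trem2 (-0.40 without HFD replicate 6; range -0.40 to 0.51), Lgals3 (-0.12 without chow replicate 4 and -0.38 without HFD replicate 5; range -0.38 to 0.43) and Tyrobp (4.81e-06 without chow replicate 3; range -0.19 to 4.81e-06). The covariate was highest in HFD libraries, so its fits cannot fully separate diet from stellate and fibroblast transcripts. The cause of the reversals was not tested. Genes called in all numbered 45 with no filter, 93 with DESeq2, 1 with limma-voom, 1 at an adjusted p of 0.10 and 0 to 11 without 1 library. The 11 were without HFD replicate 8. Among the other lipid-associated genes 3 were called with no filter, 2 with DESeq2, 1 at 0.10 and 0 to 1 without 1 library. With no filter 1 gene of the homeostatic microglia list (Fcrls) and 1 of the receptor and partner list (Mertk) were called. With the filter at 5 CPM only 6 markers were tested. Spp1, Capg, Atp6v0d2 and Syngr1 had 0 to 77 counts per library; the effect of depth on them was not tested.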

Other observations

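Some genes of the lists had too few counts to be tested; they are named after their values were seen. The fatty acid binding protein gene Fabp4 had 46 counts in HFD, all in replicates 7 and 8 (4.00 and 5.42 CPM), and none in chow. Fabp5 was at 2.78, 2.60, 16.4 and 0 CPM in HFD replicates 5 to 8, against 0.449, 0, 0 and 1.89 CPM in chow replicates 1 to 4. The synaptic vesicle gene Syp, of the same wider family as Syngr1, was at 0, 13.5, 22.6 and 0.603 CPM in HFD replicates 5 to 8, against 0, 1.09, 0 and 0 CPM in chow replicates 1 to 4. Endocrine transcripts summed to 1067 to 1874 CPM in HFD and 495 to 1872 CPM in chow. The part of endocrine RNA in the Syp level was not tested. The osteoclast protease gene Ctsk had 28 counts, in HFD replicates 6 and 7 only. DESeq2 called neither Fabp5 nor Syp (adjusted p = 0.61 and 0.26). Of the osteoclast and fusion genes, Mmp9, Calcr, Oscar, Itgb3 and Car2 had no count in any library. Others of that list were detected, with 359 counts in HFD and 488 in chow for Acp5, 104 and 117 for Dcstamp, 15 and 27 for Ocstamp, 2647 and 2950 for Tcirg1, and 3447 and 3074 for Nfatc1.

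Of the tested lipid-associated genes, the abundant matrix protease gene Mmp12, also named after its values were seen, was at 420 ± 147 CPM in HFD and 415 ± 113 CPM in chow (SD, n = 4; log2 fold change 0.02, SE 0.24, edgeR adjusted p = 0.997). Clec7a, chosen in the same way, a lectin receptor gene of Trem2-dependent microglia, was at 131, 105, 134 and 86.4 CPM in HFD replicates 5 to 8, against 216, 213, 143 and 135 CPM in chow replicates 1 to 4. Its groups did not overlap, HFD being lower. Its log2 fold change was -0.63 (SE 0.28, edgeR adjusted p = 0.89). Lipa, chosen likewise, was at 799 ± 95.2 CPM in HFD and 576 ± 54.9 CPM in chow, without overlap. Its log2 fold change was 0.47 (SE 0.16, edgeR adjusted p = 0.75).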
